A study of Oryza sativa Japonica Group with 4 samples.

Results

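Among the CG hypo-DMRs (differentially methylated regions with a lower CG level after zebularine), 26349 of 182125 regions, or 14.5%, were nearly fully methylated in the control, kept most of this methylation, and were listed for a loss in the CG context with no CHG or CHH hypo-DMR at the same place. They are called CG-alone regions here and were selected on the measured levels themselves. Each had a CG level of at least 0.97 in the control (CK) and a level above 50% of the CK level after zebularine. None overlapped, by as little as 1 base, a CHG or CHH hypo-DMR or a CG or CHG region that gained methylation after M.CviP I (hyper-DMR), where H is A, C or T. The first library came from Nipponbare (japonica) rice seedlings that were 5 days old when an exposure to 80 μM zebularine in DMSO began, which lasted another 5 days. The second came from seedlings of that age given DMSO alone, which is the CK of this comparison. The other pair was genomic DNA treated in vitro with 8 units of M.CviP I in the presence of 640 μM SAM (the methyl donor), and untreated CK DNA, each as 1 library. Bisulfite sequencing (BS-seq), which converts unmethylated cytosines and leaves 5mC, was run on 5 μg of DNA. A level is the authors' mean over the cytosines of a context in a region, as a fraction from 0 to 1, and coordinates are those of MSU7.0.

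In plants, CG methylation is copied after each replication by a maintenance methyltransferase of the MET1 family, which acts on the hemimethylated CG sites of the new duplex. CHG methylation is kept by chromomethylases that read a histone mark, and CHH methylation has to be set anew by chromomethylases or by the small RNA-directed pathway. High CG methylation without the other contexts is known from the bodies of many plant genes, and high methylation in all contexts from transposons. Zebularine is a cytidine analogue that is built into new DNA and traps methyltransferases. M.CviP I methylates cytosines that follow a G.

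Each condition had 1 library, so none of the differences below has a replicate check. Neither the regions nor the chromosomes are replicates of a treatment. The levels of both zebularine libraries chose the regions, and the M.CviP I list was used to leave regions out. Values from either comparison are therefore given as descriptions without a test. A region level averages the DNA of many cells, so that a partial loss in all cells and a full loss in some of them cannot be told apart. The name CG-alone refers to the lists, since CHG and CHH levels after zebularine are not known where no hypo-DMR was listed. The number of reads per cytosine is unknown beyond the minimum of 3 given in the methods. Positions relative to genes and the sequences of the regions were not analysed here.

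The CK criterion decided most of the selection. This level reached 0.97 in 34724 CG hypo-DMRs, or 19.1%. Of these, 39 regions had lost at least 50% of the CK level, and 1251 further regions overlapped a CHG or CHH hypo-DMR. A CG or CHG hyper-DMR left out 7085 more regions, of which 7028 overlapped a CHG and 96 a CG hyper-DMR. The CG-alone regions were thus 75.9% of the regions with this CK level. They covered 7.37 Mb, or 12.2% of the length under CG hypo-DMRs, and held 665783 CG cytosines.

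At the CK threshold the regions formed a continuum. The level was listed as exactly 0.97 in 998 CG-alone regions, and 2281 regions lay below 0.971. Just outside, 1537 regions that met the other criteria had a CK level from 0.969 to below 0.97. The first region inside, on chromosome 1 from 2027 to 2099, went from 0.97 in CK to 0.809 after zebularine. The next, on chromosome 1 from 764719 to 765123, went from 0.97 to 0.852. The first region outside, on chromosome 1 from 3441703 to 3442197, went from 0.9699 to 0.791, and a region on chromosome 2 from 14543953 to 14544411 went from 0.9699 to 0.847. The pairs on either side of this threshold thus differed little in CK level, and their treated levels overlapped.

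The threshold on the loss left out few regions, 39 of the 34724 with this CK level. The regions just inside it kept 50.1% and 50.2% of the CK level, and those just outside kept 49.8% and 49.6%. The latter lay on chromosome 6 from 25187880 to 25187915, where the level went from 1 to 0.498, and on chromosome 6 from 1256800 to 1256885, where it went from 0.98 to 0.486. All of the regions at this threshold were short, with 5 to 9 cytosines.

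The median level of the CG-alone regions was 0.978 in CK and 0.822 after zebularine. The treated-minus-CK difference had a median of -0.158 and quartiles of -0.195 and -0.131. Relative to CK, the median loss was 16.1%, and 90% of the regions were between losses of 10.9% and 27.9%. A loss of at least 0.2 was listed for 5997 regions, or 22.8%, beside 24.8% of all CG hypo-DMRs. A loss of at least 0.3 was listed for 786 regions, or 2.98%, and one of at least 0.4 for 103 regions. Losses near the minimum of the list were common, since 15.2% of the regions lost less than 0.12. Most of these regions therefore remained highly methylated after zebularine, with a treated level above 0.785 in 75% of them and a highest treated level of 0.900.

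**Figure D1:**
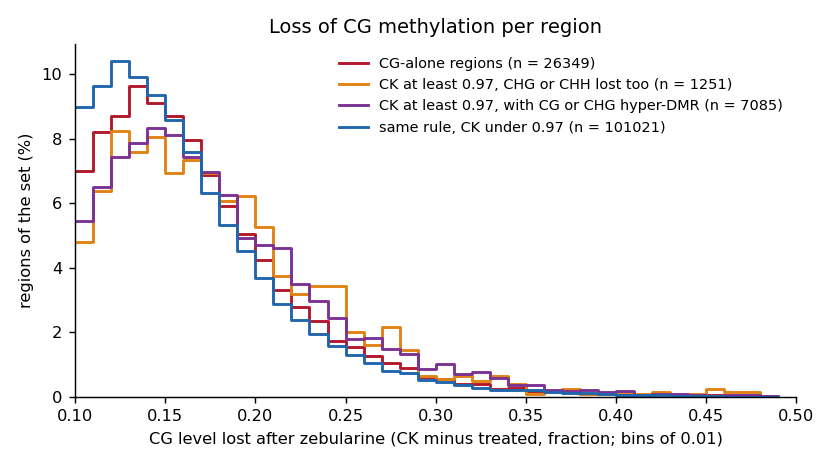
The loss of CG level per region (CK minus zebularine, fraction, in bins of 0.01) is plotted against the percentage of the regions of each set, with the 26349 CG-alone regions in red. The curves of all sets start at the minimum loss of 0.1 that the list applied and peak under 0.15, and 2.98% of the CG-alone regions lie at 0.3 or more.

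The regions that shared the CK level but not the other criteria had larger median losses. The median difference was -0.171 in the 1251 regions that also overlapped a CHG or CHH hypo-DMR. It was -0.168 in the 7085 regions that overlapped a CG or CHG hyper-DMR. In both comparisons the CG-alone regions had the smaller median loss on 12 of 12 chromosomes. The chromosomes share the same libraries, whose levels also chose the regions, so this count is a description only. In the 101021 regions that met the same rule but had a CK level under 0.97, the median difference was -0.152, from 0.947 to 0.791. Relative to CK, however, the median loss of these regions was 16.1%, the same to 3 digits as in the CG-alone regions. Both pooled values mix region sizes, and the order changed with size. At 5 to 9 cytosines the CG-alone regions had the smaller median loss, with -0.192 or 19.5% against -0.208 or 22.2%. The differences were -0.164 against -0.166 at 10 to 19 cytosines. At 20 to 39 they were -0.151 against -0.146, and the CG-alone regions also had the larger difference above that size. Relative to CK, the median losses were 16.8% against 17.7% at 10 to 19 cytosines and 15.47% against 15.46% at 20 to 39. They were 14.8% against 14.7% at 40 to 59 and 14.0% against 14.2% at 60 or more, so the relative losses were nearly equal from 20 cytosines on. The distances between the medians of these sets were smaller than the quartile range within the CG-alone regions.

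The loss moved with the number of cytosines in the region. In the 5009 CG-alone regions with 5 to 9 cytosines the median difference was -0.192, and 45.9% of them lost at least 0.2. In the 7325 regions with 10 to 19 cytosines it was -0.164, and in the 8668 regions with 20 to 39 it was -0.151. It was -0.145 for the 4154 regions with 40 to 59 cytosines and -0.137 for the 1193 regions with 60 or more, of which 4.44% lost at least 0.2. The same order was present in the regions of the same rule with a lower CK level, from -0.208 at 5 to 9 cytosines to -0.135 at 60 or more. The list itself required a p-value under 0.01 across the cytosines of a region, a test that depends on their number, and its part in this order was not tested.

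**Figure D2:**
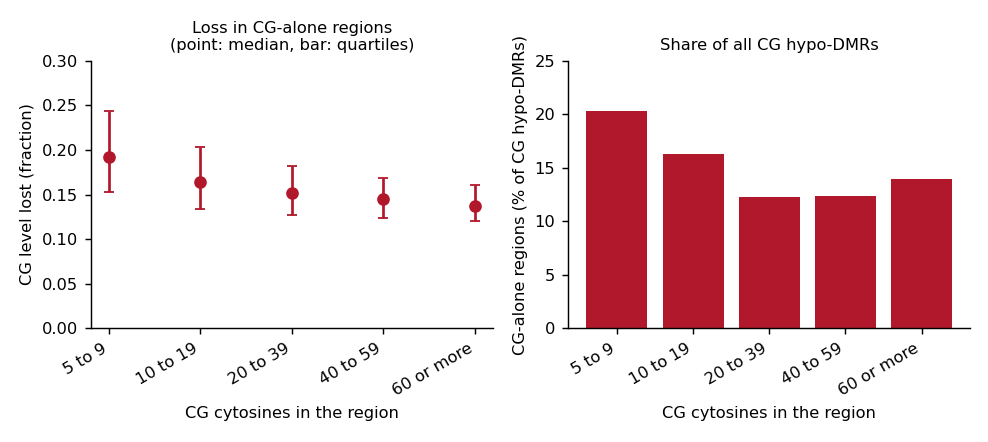
The left panel shows the median loss of CG level (points, fraction) with quartiles (bars) in CG-alone regions by the number of CG cytosines in the region, and the right panel shows the percentage of all CG hypo-DMRs that are CG-alone regions. The median loss falls from 0.192 at 5 to 9 cytosines to 0.137 at 60 or more, and the share goes from 20.3% to 13.95%, with its lowest value of 12.3% at 20 to 39.

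The median length of the CG-alone regions was 257 bp, with quartiles of 136 and 460 bp. No CG hypo-DMR of any kind exceeded 501 bp, so this limit is one of the list. A length of 490 bp or more was listed for 14.3% of the CG-alone regions, beside 18.6% of all CG hypo-DMRs. The part of the limit in the lengths below was not tested. The regions of the same rule with a lower CK level had a median of 412 bp, and they were the longer ones on 12 of 12 chromosomes. The regions with a CK level of at least 0.97 that overlapped a CG or CHG hyper-DMR had a median of 263 bp, with CG-alone regions the shorter on 8 of 12 chromosomes, and those that also lost CHG or CHH methylation one of 349 bp. The median number of CG cytosines was 21 in the CG-alone regions and 27 in the regions with the lower CK level. Per 100 bp, the CG-alone regions held a median of 8.96 CG cytosines, against 7.85 in the regions with the lower CK level. The density was 8.73 in the regions that overlapped a CG or CHG hyper-DMR and 9.48 in those that also lost CHG or CHH methylation. They made up 20.3% of the CG hypo-DMRs with 5 to 9 cytosines, 16.3% of those with 10 to 19 and 12.3% of those with 20 to 39. Their share was 12.4% at 40 to 59 cytosines and 13.95% at 60 or more.

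A CG site holds a cytosine on each strand, so an odd number of cytosines means that at least 1 site of the region was counted on a single strand. This was the case in 12485 CG-alone regions, or 47.4%, and in 44.8% of all CG hypo-DMRs.

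The CK level was listed as 1 in 2718 CG-alone regions, or 10.3%. In these regions every counted CG cytosine was read as methylated in all its reads in CK. They were small, with a median of 8 cytosines and 91 bp. Their level after zebularine had a median of 0.816, with quartiles of 0.768 and 0.855, and 40.5% of them lost at least 0.2. By comparison, the 15213 regions with a CK level from 0.97 to under 0.98 had a median of 26 cytosines and a median difference of -0.1535, and 18.9% lost at least 0.2. The 1384 regions with a CK level from 0.99 to under 1 lay between, with a median difference of -0.166. The treated level differed little across these classes, with medians from 0.816 to 0.826. Among the CG-alone regions with 5 to 9 cytosines, 33.6% had a CK level of 1, against 1.48% of those with 20 to 39. CK level, size and loss thus moved together, and their separate parts were not tested. The loss is the CK level minus the treated level, so CK level and loss are linked by definition.

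The listed t statistic allowed the spread between the cytosines of a region to be computed. In 26343 CG-alone regions the listed p-value matched, within 1%, that of a t statistic with pooled variance across cytosines. The variance between cytosines after zebularine is expressed here as a share of the largest value its mean allows. This share is 1 where each cytosine is either fully methylated or unmethylated. The listed statistic also contains the variance in CK, so for most regions it gives an upper bound, which had a median of 0.0966. In the 2714 regions with a CK level of 1 and a finite t, the CK variance is 0 and the share is exact. Its median there was 0.0548, with quartiles of 0.0315 and 0.0867, and the SD between cytosines had a median of 0.0950. The p-value cutoff of 0.01 in the list limits this share, because a region whose cytosines vary more does not pass it. At the size and loss of the regions with a CK level of 1, the largest share that passes had a median of 0.189, so a full loss at some cytosines could hardly have been listed there. In 4139 CG-alone regions, which held a median of 49 cytosines, the cutoff allowed any share. The upper bound there had a median of 0.105, quartiles of 0.0801 and 0.135 and a highest value of 0.593. How much of the remaining spread is read counting cannot be given without the depth.

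**Figure D3:**
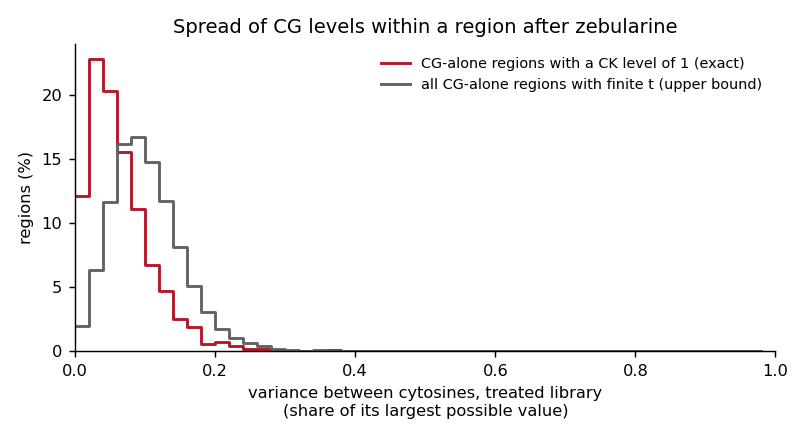
The variance between cytosines in the zebularine library, as a share of its largest possible value, is plotted against the percentage of regions, exactly for the CG-alone regions with a CK level of 1 and as an upper bound for all with a finite t. The medians are 0.0548 and 0.0966, and the p-value cutoff of the list keeps high shares out, most of all in small regions.

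The largest CG-alone regions illustrate moderate losses over many cytosines. The one with the most cytosines, on chromosome 7 from 140198 to 140698, held 120 and went from 0.974 in CK to 0.804 after zebularine. The region on chromosome 3 from 20935983 to 20936477 held 115 cytosines and had the largest loss of the 6 described here, from 0.972 to 0.748. A region on chromosome 12 from 13359480 to 13359945 with 112 cytosines went from 0.975 to 0.818. These regions thus kept between 77.0% and 83.9% of the CK level.

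The next regions by number of cytosines gave similar values. On chromosome 2, from 20706121 to 20706589, 104 cytosines went from 0.985 to 0.819. On chromosome 4, from 8447199 to 8447697, 99 cytosines went from 0.977 to 0.815. On chromosome 6, from 3711484 to 3711964, 98 cytosines went from 0.972 to 0.846, the smallest loss of the 6. The largest region of each of the other 6 chromosomes held 90 to 97 cytosines, with differences between -0.187 on chromosome 9 and -0.103 on chromosome 1.

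The largest losses were found in small regions. The region on chromosome 12 from 21386847 to 21386919 held 7 cytosines and went from 1 to 0.510. On chromosome 1, from 20805313 to 20805375, 5 cytosines went from 0.976 to 0.490. On chromosome 3, from 20671413 to 20671474, 9 cytosines went from 0.972 to 0.487, and on chromosome 2, from 19135373 to 19135426, 8 cytosines went from 1 to 0.520. All 4 regions are at most 73 bp long, and their losses lie next to the threshold of 50% that the rule applied.

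The region with the smallest listed p-value among those whose cytosines varied lies on chromosome 10 from 3323913 to 3324401. It held 94 cytosines, more than any other CG-alone region of that chromosome, and went from 0.976 in CK to 0.812 after zebularine, with a listed p-value of 5.17e-41. Smaller values were listed for 6 regions in which the cytosines did not vary, all with a CK level of 1. In 3 of these, which were chosen after their values were seen, the level after zebularine was 0.750. They lie on chromosome 1 from 6741743 to 6741815, on chromosome 4 from 17534787 to 17534852 and on chromosome 6 from 16975709 to 16975852. The others had levels of 0.800 on chromosome 6 from 30658005 to 30658035, 0.830 on chromosome 8 from 8463030 to 8463089, and 0.880 on chromosome 12 from 21857241 to 21857278. These 6 regions held 5 or 6 cytosines each, and their p-values reflect the lack of spread between cytosines rather than a larger loss.

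CG-alone regions were found on all 12 chromosomes in similar proportion. Their share of the CG hypo-DMRs ranged from 13.8% on chromosome 11 to 15.6% on chromosome 1. The median difference ranged from -0.162 on chromosome 11 to -0.153 on chromosome 3, and the median CK level from 0.9777 to 0.9786. In 1 Mb windows, the number of CG-alone regions went from 1 to 162 with a median of 65. Its correlation with the number of all CG hypo-DMRs was high (Pearson's r = 0.898 and Spearman's rho = 0.920 across 380 windows, which share the same libraries). The second number contains the first, so a high value was built in. For the share of CG-alone regions per window and the number of CHG hyper-DMRs there, r was -0.100 and rho -0.0638. These values cover 378 windows with at least 50 CG hypo-DMRs. The rule left out regions that overlapped a CHG hyper-DMR, so the share was built partly from that list. The correlation therefore cannot tell whether the share is related to CHG hyper-DMRs apart from the rule.

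Most CG-alone regions had no other CG-alone region next to them, although other CG hypo-DMRs were often near. With gaps of up to 100 bp, 24488 of them, or 92.9%, formed no run with another, 869 runs held 2 regions, 37 held 3, and 3 held 4. The median gap to the next CG-alone region was 5934 bp. A CG hypo-DMR of any kind followed within 100 bp after 14.1% of the CG-alone regions, beside 19.3% of all CG hypo-DMRs. Within 500 bp these shares were 48.6% and 46.7%. Since few regions lay within 100 bp and 14.5% of all CG hypo-DMRs were CG-alone, few runs could form. Where another CG hypo-DMR followed within 100 bp, that next region was CG-alone in 25.6% of 3720 cases, beside 15.8% after any CG hypo-DMR and 14.6% after one that was not CG-alone. The next region after a CG-alone region had a median CK level of 0.960, against 0.954 after a CG hypo-DMR that was not. High CK levels were thus shared to some extent by neighbouring regions, although 71.4% of these neighbours lay below 0.97.

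The longest of the runs of 4 covers 2040 bp of chromosome 10, from 14003216 to 14005255, and holds 138 CG cytosines. Its regions went from 0.975 to 0.827, from 0.976 to 0.817, from 0.971 to 0.812 and from 0.983 to 0.856. The treated levels along the run thus stayed within 0.0437 of each other. These regions were 483 to 499 bp long, near the length limit of the list. Whether they are pieces of a longer stretch was not tested. The other runs of 4 lie on chromosome 12 from 7352272 to 7354244, with differences between -0.168 and -0.129, and on chromosome 5 from 20583484 to 20585196, with differences between -0.168 and -0.109.

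The kinds of region that the rule excludes lay at different distances. The median distance to the nearest CHG hypo-DMR was 28452 bp and to the nearest CHH hypo-DMR 31129 bp. Within 100 bp, 115 CG-alone regions had a CHG hypo-DMR and 48 a CHH hypo-DMR. The nearest CHG hyper-DMR lay at a median of 1253 bp and the nearest CG hyper-DMR at 3541 bp. The lists differed in size, with 283720 CHG and 115672 CG hyper-DMRs but 3868 CHG and 3890 CHH hypo-DMRs. The distances were shorter to the larger hyper-DMR lists, and between the hypo-DMR lists the slightly larger one lay farther away. The part of list size in these distances was not tested. A CHG hyper-DMR lay within 1000 bp of 43.0% of the CG-alone regions, beside 46.2% of the regions of the same rule with a lower CK level. In the latter regions, the median distances were 1138 bp to the nearest CHG hyper-DMR and 28034 bp to the nearest CHG hypo-DMR.

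CHH hyper-DMRs were the regions of the M.CviP I list that the rule did not use. Of the CG-alone regions, 23694, or 89.9%, overlapped a CHH hyper-DMR, beside 96.5% of all CG hypo-DMRs. The share was lower than that of all CG hypo-DMRs on 12 of 12 chromosomes, by 5.35 to 7.62 percentage points. No CHH hyper-DMR was listed at 2655 CG-alone regions, or 10.1%, against 2.74% of the regions of the same rule with a lower CK level. On single chromosomes these shares were 8.80% to 11.4% and 2.13% to 3.33%.

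Short regions have less room to share a base. Regions of the same length were therefore compared. Under 150 bp, 20.1% of the CG-alone regions and 8.52% of the regions with the lower CK level shared no base with a CHH hyper-DMR. At 450 bp or more the shares were 2.11% and 0.691%. The 1251 regions that also lost CHG or CHH methylation had shares of 23.0% and 3.39% in these length classes, above those of the CG-alone regions. The density of CG cytosines moved with the shares as well. At 12 or more CG cytosines per 100 bp, 19.6% of the CG-alone regions and 7.11% of the regions with the lower CK level had no CHH hyper-DMR, and under 6 per 100 bp the shares were 3.62% and 1.52%. The CG-alone regions without a CHH hyper-DMR had a median of 12.2 CG cytosines per 100 bp and 136 bp, against 8.68 and 279 bp in those with one. The part of the number of CHH cytosines in these shares was not tested. The CG loss itself differed little, with a median difference of -0.164 without and -0.158 with a CHH hyper-DMR.

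**Figure D4:**
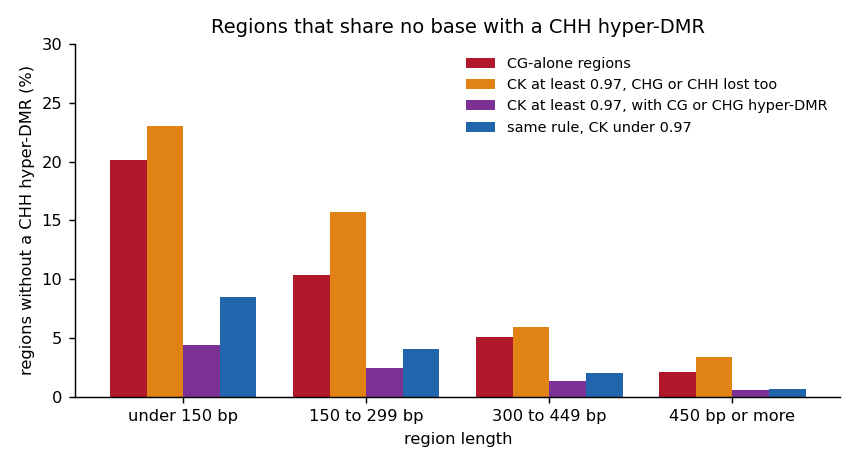
Bars give the percentage of regions that share no base with a CHH hyper-DMR, by region length and set. In CG-alone regions the percentage falls from 20.1% under 150 bp to 2.11% at 450 bp or more, above the regions with a CK level under 0.97 (8.52% and 0.691%).

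Where a CHH hyper-DMR was listed, it gave the CHH level of the other CK library, the untreated DNA of the M.CviP I comparison. For each CG-alone region, the overlapping CHH hyper-DMRs were averaged with their shared bases as weights, and 1 CHH hyper-DMR can serve several regions. The median CHH level was 0.0608 in this CK, with quartiles of 0.0426 and 0.0885, and 0.479 after M.CviP I. CHH methylation was thus low in the untreated DNA of most of these places. This DNA is not the DMSO CK against which CHH hypo-DMRs were called, and the CHH level of the DMSO CK is not known there. The CHH level of the untreated DNA reached 0.1 in 18.8% of these regions, of which 3952 lay below 0.2 and 499 at 0.2 or above.

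The CHH level in CK was higher than in the regions of the same rule with a lower CG level, where its median was 0.0520, and this order was present on 12 of 12 chromosomes. It was also higher than in the 7085 regions overlapping a CG or CHG hyper-DMR, which had a median of 0.0368, again on 12 of 12 chromosomes. It was lower than in the regions that also lost CHG or CHH methylation, with a median of 0.0681, on 11 of 12 chromosomes, chromosome 4 being the exception. The first of these differences was present in each length class, from 0.0574 against 0.0454 under 150 bp to 0.0639 against 0.0535 at 450 bp or more. These medians were closer together than the quartiles within the CG-alone regions. Among chromosomes, the median CHH level of CG-alone regions ranged from 0.0555 on chromosomes 11 and 12 to 0.0700 on chromosome 1.

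**Figure D5:**
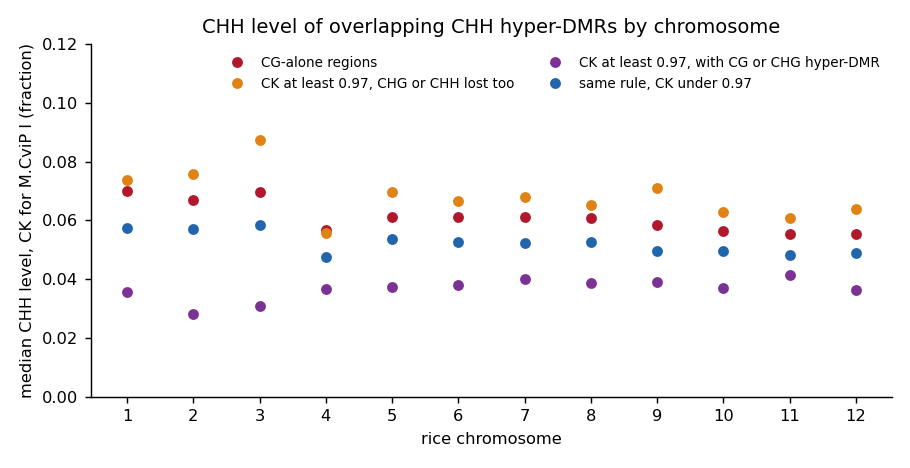
Each point is the median CHH level (fraction) in the CK for M.CviP I over the regions of a set on 1 chromosome, taken from overlapping CHH hyper-DMRs. CG-alone regions (red) lie between 0.0555 and 0.0700, above the regions of the same rule with a CK level under 0.97 (blue) on all 12 chromosomes.

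The CG loss after zebularine was smaller where this CHH level was higher. The median difference was -0.188 in the 1137 CG-alone regions with a CHH level under 0.02 and -0.166 in the 7154 regions from 0.02 to under 0.05. It was -0.154 in the 10952 regions from 0.05 to under 0.1, -0.146 from 0.1 to under 0.2, and -0.144 at 0.2 or above. The number of CG cytosines moved with it at the low end, with a median of 10 under 0.02 and of 24 from 0.05 to under 0.1, and its part in the order was not tested. The CHH and CG levels come from different CK libraries.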

How the data were processed

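BS-seq data of 4 rice libraries were available as 2 lists of regions. According to the methods, reads were trimmed with Fastp and mapped to MSU7.0 with Bismark, positions with at least 3 reads were used, and DMRs were called with CGmapTools (p-value under 0.01, difference of at least 0.1). The versions used for the BS-seq data are not given in the sources used here. The deposited methylation level is a fraction, the deposited p-value is unadjusted, and the t statistic deposited beside it is a score from the test across cytosines. The lists have no header, so treated and CK columns were identified from the list names and the sign of the difference.

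Regions were selected by the rule in the report, with 1 shared base as overlap. The members, sets and rules were chosen with earlier results of these data known. Regions named are those with the most cytosines per chromosome, the 4 largest losses, the 3 smallest non-zero p-values, those at the thresholds and the longest run. No test was run, since each condition had 1 library. Alternatives were a p-value under 0.001, a loss of at least 0.2, a CK level of at least 0.98, at least 10 cytosines, a margin of 100 bp, an overlap of 50%, neighbours within 500 bp and a length-weighted mean. Calculations used Python 3.11.15, numpy 2.4.6, pandas 2.3.3, scipy 1.17.1 and matplotlib 3.10.9, and the overlap, selection and variance steps were tested on simulated data. Gene annotation and sequence were planned but not analysed here, because the gene table at hand is of another assembly than MSU7.0.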

Additional observations from a re-analysis of the deposited data

How the results depend on the processing

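The values were compared with their 95% binomial intervals over regions, and the number of regions with a factor of 1.5. These intervals treat regions as independent, which neighbours in the same libraries are not, so they are narrow and small shifts count as moved. Of 28 alternatives, 9 stayed within these limits and 19 moved. The cause was not tested unless the setting itself removes regions. The number of CG-alone regions was 5997 at a minimum loss of 0.2 and 11136 at a CK level of at least 0.98. The median difference was -0.165 at that CK level and -0.152 with at least 10 cytosines. The length-weighted mean of the difference was -0.161, which was set against the median although the unweighted mean was -0.170. The median number of cytosines was 25 with a p-value under 0.001, 12 at a minimum loss of 0.2 and 15 at a CK level of at least 0.98. The share with a CHH hyper-DMR was 87.4% at a minimum loss of 0.2, 90.9% with at least 10 cytosines and 82.1% when 50% of the region had to be covered. The median CHH level in CK was 0.0526 at a minimum loss of 0.2 and 0.0625 with at least 10 cytosines. The share followed by a CG-alone region was 27.2%, 23.4% and 23.3% at a minimum loss of 0.2, with at least 10 cytosines and for neighbours within 500 bp. The median upper bound of the variance share was 0.0905 at a minimum loss of 0.2, 0.104 with at least 10 cytosines and 0.0811 at a CK level of at least 0.98. The alternatives planned for annotation and sequence were not run. No paired analysis was possible because the libraries carry no replicate numbers and there was 1 per group. The lists hold no read depth, so a coverage minimum could not be varied.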

Other observations

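The windows described here were chosen after their values were seen. The 1 Mb window with the most CG-alone regions lies on chromosome 6 from 18000000 to 18999999, with 162 of 867 CG hypo-DMRs. The share of CG-alone regions was compared only among the 378 windows with at least 50 CG hypo-DMRs. There it was highest on chromosome 8 from 28000000 to 28999999, with 46 of 171 CG hypo-DMRs or 26.9%. It was lowest on chromosome 10 from 21000000 to 21999999, with 18 of 287 or 6.27%. On chromosome 5, the window from 10000000 to 10999999 held 137 CG-alone regions of 845 CG hypo-DMRs, and that from 12000000 to 12999999 held 70 of 965. The median difference was -0.165 in the former and -0.181 in the latter.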
